A study of Mus musculus with 5 samples.

Results

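The epidermal growth factor (EGF) family genes Areg, Ereg, Hbegf, Epgn, Btc and Tgfa, which encode ligands, and Egfr, which encodes their shared receptor, were followed across the cells of 5 single-cell libraries of mouse dermis. They were taken by gene symbol, 7 of the 27998 genes in the count table, and each symbol matched 1 row. They were chosen by levels already seen in these data, namely those of Areg in a population with Cd3e in P50 and P50_Depil5D and those of the other members in epithelial cells. The levels of the members by cell class are therefore a description, and no test is attached to them.

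Live CD45+ cells had been sorted from C57BL/6 dermis and captured in 10x Genomics droplets. The libraries are labelled P50_Depil5D, P45, P50, P63 and P80, with 1 library to a group, and the series describes the day series as covering telogen, the resting phase of the hair cycle. The P numbers are read here as postnatal days of age, and Depil5D as depilation with 5 days. The label does not say whether P50 is the day of depilation or of collection, so it is used as written. The labels give neither sex nor the number of mice pooled, and all groups share strain, tissue and sort. With 1 library per group no p-value can be given between libraries. Levels are CPM, counts per 1000000 of the unique molecular identifiers (UMIs) summed over the cells of a class, with exact 95% Poisson intervals, and ratios carry exact conditional 95% intervals. These intervals cover counting error only and leave out differences between mice and between preparations.

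EGF family ligands are made as membrane-bound precursors, and metalloproteases such as ADAM17 release them to act on nearby cells. They bind ERBB receptors, of which EGFR, encoded by Egfr, is the best known in skin, and the bound receptors signal through RAS and ERK to genes of growth and repair. Areg encodes amphiregulin, a ligand known both from keratinocytes and from lymphocytes that take part in tissue repair. Epgn (epigen), Ereg (epiregulin), Hbegf (heparin-binding EGF-like growth factor), Tgfa (transforming growth factor alpha) and Btc (betacellulin) encode the other ligands considered here.

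4 of the 7 genes lie together on chromosome 5 within 376 kb of the GRCm38 assembly: Epgn at chr5:91027464-91035215, Ereg at chr5:91074622-91093646, Areg at chr5:91139599-91148432 and Btc, on the minus strand, at chr5:91357261-91402994. Tgfa lies at chr6:86195223-86275719 and Egfr at chr11:16752203-16918158. Promoters of 5 of the 7 members were in the RefSeq table of the GRCm38.p6 build, which gives 250 bases before and 50 after each gene start. Those of Areg and Epgn are shown because these neighbours, both on the plus strand, were detected in different cell classes. Capitals mark matches on either strand to 1 of 4 motifs. The cAMP response element was searched as TGACGTCA, and the AP-1 site as TGANTCA, so that no match to 1 of them is also a match to the other. The core promoter motifs were the TATA box, searched as TATAAA, and the GC box, searched as GGGCGG. The Areg sequence is chr5:91139349-91139648 and the Epgn sequence is chr5:91027267-91027566.
Areg: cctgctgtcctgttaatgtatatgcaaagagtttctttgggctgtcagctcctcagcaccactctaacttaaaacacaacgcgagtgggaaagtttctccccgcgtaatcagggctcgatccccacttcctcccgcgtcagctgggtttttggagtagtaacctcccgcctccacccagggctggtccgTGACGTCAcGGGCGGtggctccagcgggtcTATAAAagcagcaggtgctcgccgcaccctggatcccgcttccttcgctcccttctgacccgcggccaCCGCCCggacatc
Epgn: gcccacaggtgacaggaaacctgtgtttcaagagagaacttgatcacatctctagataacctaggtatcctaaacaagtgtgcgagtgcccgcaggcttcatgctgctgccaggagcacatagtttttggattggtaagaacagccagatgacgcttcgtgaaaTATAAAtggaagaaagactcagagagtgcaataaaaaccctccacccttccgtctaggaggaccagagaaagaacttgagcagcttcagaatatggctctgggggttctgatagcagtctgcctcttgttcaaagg
Positions count from the start of the RefSeq entry, which for Areg is the gene start given above and for Epgn lies inside the gene coordinates given above. The Areg promoter held TGACGTCA with its first base 61 bases before the start, TATAAA 31 bases before it, and 2 matches to GGGCGG. TGACGTCA occurred in 1.79% of the 32817 promoters in the table, TATAAA in 13.6% and GGGCGG in 35.6%. The Epgn promoter held TATAAA 86 bases before the start and none of the other 3. No match to TGANTCA, which 7.81% of promoters held, was found in either. A match is a description of letters and not a measured site.

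Cells were placed in families of classes by the number of marker genes detected, at least 3 and 2 more than for any other family. This left 664 of 6162 cells ungated and 801 near the limits of the gate. The lymphoid classes shared a family, as did the myeloid classes, and no such margin was needed within either. A lymphoid cell with a CD3 chain UMI was called a T cell, whatever its other lymphoid markers. Myeloid cells went to the class with the largest share of its markers detected. A class cut from such a score is a range rather than a discrete type. Cells gated as T cells numbered 1642, and 80.6% of them had a UMI of Cd3e, a gene that the gate itself used. Of the natural killer markers of the gate, Klrb1c was found in 1.89% of them, Ncr1 in 0.792% and Eomes in 0.122%. The other natural killer markers of the gate are not given here for T cells. Cells gated as keratinocytes numbered 1059, with 4066 CPM of Krt14, likewise a marker of their gate, and 26.4 CPM of Ptprc, the gene of CD45. Ptprc stood at 513 CPM in the T cells. The libraries held 1032621 to 7491878 UMIs in 497 to 2153 barcodes. The libraries other than P45 shared 134 to 193 cell barcodes in each pair, and 582 of the 1059 keratinocytes, against 25 of the 1642 T cells, had a barcode that occurred in more than 1 library. Of those 263 barcodes, 164 were keratinocytes in each library that held them. Values in keratinocytes are therefore given with and without these cells.

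Areg, the ligand with the most UMIs in the data, was concentrated in T cells. Of its 4106 UMIs, 80.6% were in T cells, 6.14% in keratinocytes, 6.06% in other immune classes and 7.23% in ungated cells. Its level was 1228 CPM in T cells and 56.4 CPM in all other cells together, a ratio of 21.8 (95% interval 20.2 to 23.6). The T cell level was 26.0 times that of keratinocytes and 40.4 times that of dendritic cells. T cells were above all other cells together in each library, from 5.22 times in P45 to 22.8 times in P50.

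Among classes of at least 20 cells, the order below T cells was mostly within counting error. The 14 cells gated by type 2 innate lymphoid cell markers, at 1258 CPM, were too few for this order and are described further on. Cells with lymphoid markers but no CD3 chain UMI had 207 CPM from 19 UMIs in 62 cells, and natural killer or type 1 innate lymphoid cells had 4 UMIs in 27 cells. Monocytes (48.5 CPM), keratinocytes (47.2 CPM), dendritic cells (30.4 CPM), macrophages (20.3 CPM) and Langerhans cells (19.3 CPM) followed. Of these neighbours, T cells over lymphoid cells without CD3 and keratinocytes over dendritic cells (ratio 1.55, 1.26 to 1.92) had intervals clear of 1. Fibroblasts had no Areg UMI in 46 cells, where 3 counts would be 22.6 CPM.

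**Figure D1:**
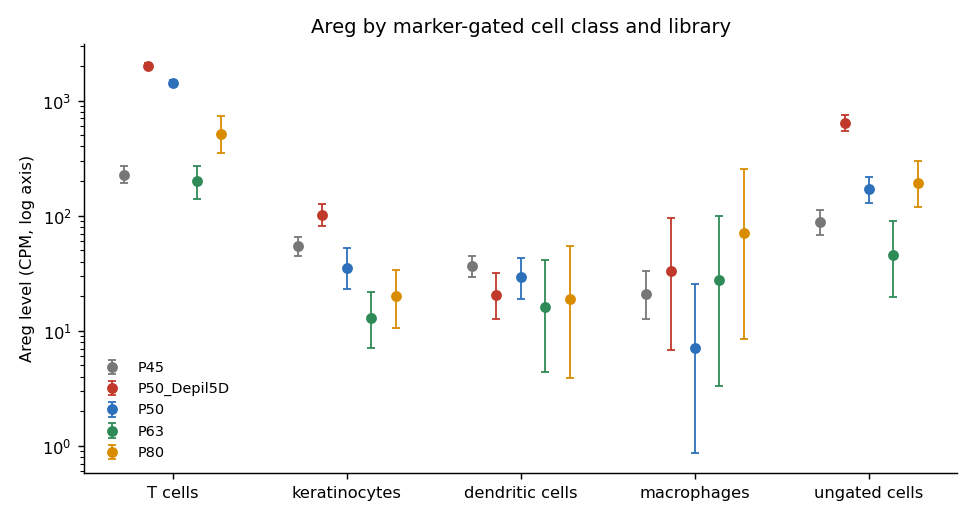
Areg level in CPM (log axis) by marker-gated class, with 1 point per library and bars for the exact 95% Poisson interval. T cells ran from 199 CPM in P63 to 2011 CPM in P50_Depil5D, while keratinocytes, dendritic cells and macrophages did not pass 102 CPM in any library.

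In T cells the Areg level was 228 CPM in P45 (193 to 268), 2011 CPM in P50_Depil5D (1922 to 2104), 1418 CPM in P50 (1338 to 1502), 199 CPM in P63 (141 to 272) and 517 CPM in P80 (349 to 738). P50_Depil5D and P50 were the high libraries, P45 and P63 the low ones, and P80 lay between. P50_Depil5D stood 1.42 times as high as P50 (1.32 to 1.53), short of the 2-fold limit on log2(CPM + 10) that 0.454% of 6394 genes passed upward in that comparison. P50 stood 6.21 times as high as P45 (5.24 to 7.41), a comparison in which 5.37% of 6180 genes were past 2-fold upward. P63 differed from P45 by less than the counting error, at 0.870 times its level (0.596 to 1.24).

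P80 stood at 2.26 times the level of P45 (1.48 to 3.37), in a comparison where 7.83% of 3957 genes were past 2-fold upward. It rested on 30 UMIs in 48 cells, 10 of them from 1 cell. Of those 48 cells, 23 also carried 2 or more keratinocyte markers, and these held 22 of the 30 UMIs. The 25 others had 327 CPM from 8 UMIs, which put P80 at 1.33 times P45 once such mixed cells were left out of both (0.561 to 2.71).

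Both the share of T cells with an Areg UMI and the number per positive cell were high in P50_Depil5D and P50. The share was 21.4% in P45, 44.3% in P50_Depil5D, 40.2% in P50, 12.6% in P63 and 25.0% in P80. Positive cells held on average 2.70, 6.77, 5.08, 2.60 and 2.50 UMIs in the same order. With each cell thinned to 1000 UMIs, which left out 98 shallower T cells of P50_Depil5D, 147 of P50, 5 of P63 and 27 of P80, the shares were 13.4%, 43.6%, 39.3%, 11.4% and 14.3%. Dendritic cells, at a median of 2334 UMIs against 1355.5 in T cells, had an Areg UMI in 2.73% to 4.91% of cells in each library, so the T cell shares lay above that background.

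Areg was uneven among T cells. Of 1642 cells, 1045 had no Areg UMI, 190 had 6 or more and 98 had 10 or more, up to 52 in 1 cell. The tenth of T cells with the most Areg held 66.6% of the T cell UMIs. Leaving out the top cell of each library gave 1960 CPM in P50_Depil5D and 1372 CPM in P50, so single cells did not set these levels.

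Pooled over libraries, most T cell Areg lay in cells with markers such as Ctla2a, Xcl1, Klrd1 and Cd7, which dendritic epidermal T cells, the gamma-delta T cells of mouse epidermis, are known to carry. This Ctla2a-high subset, called by at least 2 of its markers, had 1285 cells, 78.3% of the T cells, and 95.3% of the T cell Areg UMIs. By library it held 87.4% of them in P45, 97.7% in P50_Depil5D and 94.5% in P50. In P63 it held 66.7% with 62.2% of the T cells, and in P80 46.7% with 66.7% of the T cells. Its levels were 281 CPM in P45, 2370 CPM in P50_Depil5D, 1696 CPM in P50, 204 CPM in P63 and 368 CPM in P80. P50_Depil5D over P50 was 1.40 (1.30 to 1.51), close to the value over all T cells, and P50 over P45 was 6.04. T cell receptor constant genes were not used here to tell gamma-delta from alpha-beta cells.

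T cells gated by regulatory markers such as Foxp3, Ctla4 and Il2ra also had Areg, which regulatory T cells of injured tissue are known to make. These 200 cells had 100 CPM in P45, 385 CPM in P50_Depil5D, 503 CPM in P50, 425 CPM in P63 and 382 CPM in P80. P45 was the lowest, though its interval overlapped that of P80, and the intervals of the 4 others overlapped each other. A UMI of Foxp3 itself was found in 3.29% of all T cells. P50_Depil5D over P50 was 0.765 (0.501 to 1.16), within counting error. The Ctla2a-high level was 6.16 times the regulatory-marker level in P50_Depil5D (4.52 to 8.61) and 3.37 times in P50 (2.60 to 4.45), against 0.480 times in P63 (0.218 to 1.16). T cells with interleukin-17 programme markers had 1 Areg UMI in 51 cells.

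Among T cells of P45, P50_Depil5D and P50, Areg went with the level of Ctla2a, an inhibitor of cysteine proteases. Cells with no Ctla2a UMI had 79.6 CPM of Areg in P45, 173 CPM in P50_Depil5D and 271 CPM in P50. At 5 to 10 Ctla2a UMIs per 1000 UMIs of the cell the level was 534 CPM in P45, 2769 CPM in P50_Depil5D and 1352 CPM in P50. At 10 to 20 it was 868 CPM in P45, 2963 CPM in P50_Depil5D and 2177 CPM in P50. In these 2 ranges P45 was below both others. Above 20 per 1000, P45 had 1 cell, with 14 UMIs, against 2717 CPM in P50_Depil5D and 2043 CPM in P50. In cells with Ctla2a above 0 and up to 5 per 1000, P50_Depil5D (675 CPM) and P50 (751 CPM) were alike. The higher Areg of P50_Depil5D therefore lay in the higher ranges. P63 did not follow this order at the low end. It had 212 CPM with no Ctla2a UMI (126 to 335) and 45.1 CPM above 0 and up to 5 (12.3 to 115). At 5 to 10 P63 had 641 CPM from 8 UMIs. P80 had 281, 573 and 260 CPM in these ranges, from 6, 16 and 1 UMIs. The Ctla2a level itself was 2633 CPM in P45, 9642 CPM in P50_Depil5D and 11044 CPM in P50, so between P50_Depil5D and P50 it ran opposite to Areg.

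**Figure D2:**
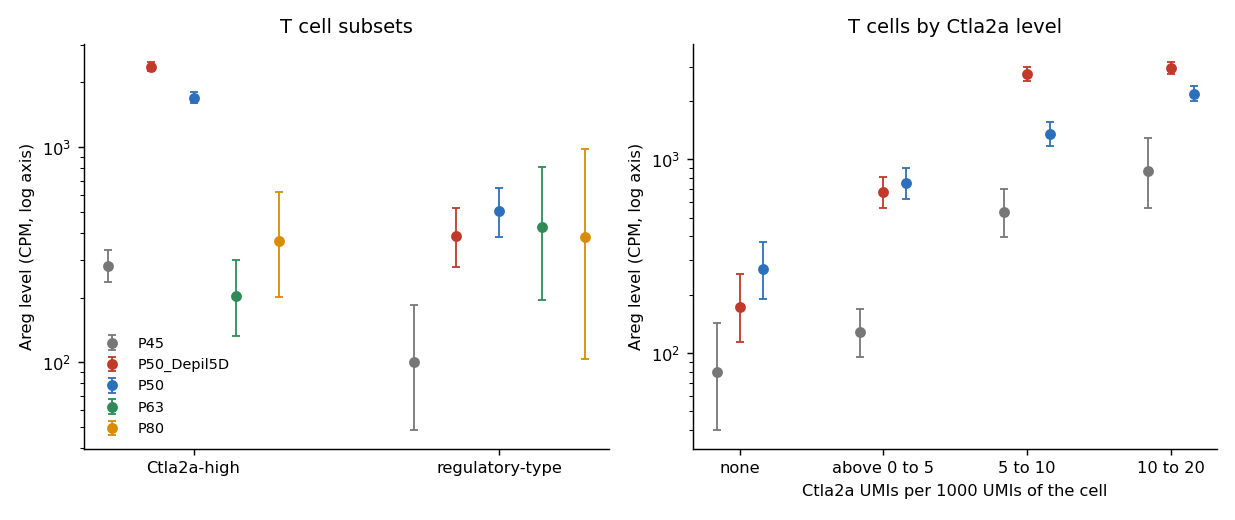
Areg level in CPM (log axes) with exact 95% Poisson intervals, in 2 subsets of T cells for each library (left) and in T cells by their Ctla2a UMIs per 1000 UMIs for P45, P50_Depil5D and P50 (right). In the Ctla2a-high subset P50_Depil5D (2370 CPM) and P50 (1696 CPM) stand above the other libraries, while cells with regulatory markers reach at most 503 CPM.

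Cycling T cells, called by proliferation genes such as Mki67 and Top2a, had about the same Areg level as the others, 1173 CPM and 1236 CPM. In P50_Depil5D the cycling cells had 1310 CPM and the others 2130 CPM, while in P50 they had 1535 CPM and the others 1392 CPM.

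Hbegf, whose product binds heparan sulphate and is known from migrating keratinocytes, had most of its UMIs in keratinocytes. Keratinocytes held 74.3% of its 861 UMIs, with 120 CPM. That was 13.9 times the level of the immune classes (11.0 to 17.6), and 8.17 times by Leiden clusters in place of gates. The 15 endothelial cells had 99.5 CPM from 5 UMIs (32.3 to 232), a range that holds the keratinocyte level. The 5 pericytes or smooth muscle cells had 3 UMIs, all in 1 cell. A Leiden cluster of 95 cells named by endothelial markers had 236 CPM. By library the keratinocyte level was 126 CPM in P45, 173 CPM in P50_Depil5D, 117 CPM in P50, 79.8 CPM in P63 and 98 CPM in P80. P50_Depil5D was highest, at 1.48 times P50 (1.12 to 1.96) and 1.5 times without shared barcodes. In keratinocytes with no Ctla2a or CD3 chain UMI the ratio was 1.13, with 149 CPM in P50_Depil5D and 132 CPM in P50. Suprabasal keratinocytes, by markers such as Krt1 and Krt10, had 249 CPM and basal ones 109 CPM, a ratio of 2.30 (1.68 to 3.08). That rested on few cells, since 1 suprabasal cell of P50_Depil5D held 23 of the 52 UMIs, and without the top cell of each subset the levels were 151 CPM and 107 CPM. By library the ratio was clear of 1 in P50_Depil5D (4.22, 2.66 to 6.48) and P50 (3.05, 1.08 to 7.05), and within counting error in P45 (1.06), P63 (1.71) and P80 (2.40). Suprabasal cells had 697 CPM in P50_Depil5D and 421 CPM in P50, an order that turned without the top cell of each, at 179 CPM in P50_Depil5D and 449 CPM in P50.

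Macrophages had the highest pooled Hbegf level among the immune classes, though Langerhans cells, with 2 UMIs, were within its counting error. Their level of 21.8 CPM was 2.45 times that of dendritic cells and 7.34 times that of T cells, and keratinocytes were 5.50 times as high. By library, macrophages had 8.86 CPM in P45, 87.7 CPM in P50_Depil5D, 39.1 CPM in P50, 41.0 CPM in P63 and no UMI in 26 cells of P80. These came from 8, 8, 11, 3 and 0 UMIs, of which 5 of the 8 in P50_Depil5D were in 1 cell. P50_Depil5D over P50 was 2.24 (0.784 to 6.13), within counting error, and P50 over P45 was 4.41 (1.62 to 12.6). No Krt14 UMI was found in the 39 macrophages of P50_Depil5D, and 2 were found in the 121 of P50.

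Epgn, a low-affinity ligand known from epidermis and sebaceous gland, was found mostly in keratinocytes, with 87.4% of its 183 UMIs there and 145 times the level of the immune classes (39.6 to 1212). This ratio was 11.4 by Leiden clusters in place of gates and 69.9 without P50_Depil5D. Keratinocytes had 13.7 CPM in P45, 89.6 CPM in P50_Depil5D, 31.1 CPM in P50, 18.6 CPM in P63 and 19.9 CPM in P80. P50_Depil5D was the highest library, at 2.88 times P50 (1.77 to 4.86) and 2.61 times without shared barcodes. It was past the 2-fold limit, as were 1.02% of the 6065 genes measured in keratinocytes for that comparison, with 0.462% past it downward. A single cell held 28 of the 77 UMIs, and without it the level was 58.2 CPM. P50 over P45 was 2.27 (1.24 to 4.12).

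In each library most keratinocyte Epgn UMIs lay in cells that also held immune markers. Cells with 2 or more markers of both kinds carried 28 of the 28 UMIs in P45 and 18 of the 22 in P50. They carried 18 of the 20 in P63, 12 of the 13 in P80 and 73 of the 77 in P50_Depil5D. Such cells were 60.1% of the keratinocytes of P50_Depil5D, with 724608 of their 859217 UMIs of all genes. They also held 138 of its 149 Hbegf UMIs. In P50 they were 51.5% of the keratinocytes and held 72 of the 83 Hbegf UMIs. Outside them the levels were 29.7 CPM in P50_Depil5D and 25.2 CPM in P50, from 4 UMIs each. Without cells that had a Ctla2a or CD3 chain UMI they were 59.5 CPM and 35.8 CPM, a ratio of 1.66 (0.814 to 3.56). T cells held 1 Epgn UMI in 1642 cells. The part of mixed cells in this difference was not tested. Over pooled libraries Epgn had 42.3 CPM in basal cells, 9.59 CPM in suprabasal cells and 21.3 CPM in upper follicle cells, and suprabasal over basal was 0.227 (0.0272 to 0.834). Of the 141 basal UMIs 75 were in P50_Depil5D, and basal over upper follicle was 1.03 in P50, 0.692 in P63 and 0.795 in P80, all within counting error. In basal keratinocytes P50_Depil5D had 116 CPM and P50 37.4 CPM, a ratio of 3.10 (1.79 to 5.70).

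Tgfa, an autocrine ligand of keratinocytes, was rarer, with 99 UMIs in 80 cells, 86.9% of the UMIs in keratinocytes and none in T cells. Keratinocytes had 11.7 CPM in P45, 34.9 CPM in P50_Depil5D, 18.4 CPM in P50, 7.43 CPM in P63 and 16.8 CPM in P80. P50_Depil5D was again the highest library. Its ratio to P50 was 1.90 (0.961 to 3.97), within counting error, and 2.41 without shared barcodes (1.07 to 6.12). Mixed cells held 29 of the 30 keratinocyte UMIs of P50_Depil5D and 12 of the 13 of P50, which left 1 UMI outside them in each.

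Areg in keratinocytes, the member's other well-known source, was lower than in T cells. Keratinocytes had 54.7 CPM in P45, 102 CPM in P50_Depil5D, 35.4 CPM in P50, 13 CPM in P63 and 19.9 CPM in P80. P50_Depil5D was 2.90 times P50 (1.84 to 4.72), and 8.14 times without shared barcodes (3.56 to 22.9). Their Ctla2a level, a T cell gene here, was also highest in that library, at 377 CPM in P50_Depil5D and 187 CPM in P50. In keratinocytes with no Ctla2a or CD3 chain UMI the direction turned, with 17.4 CPM in P50_Depil5D and 33 CPM in P50, a ratio of 0.526 (0.175 to 1.45). The part of T cell RNA in the value over all keratinocytes was not tested beyond this.

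The Areg UMIs of keratinocytes were also set beside their Ctla2a UMIs at the ratio seen in the T cells of the same library. That ratio would give 67.6 Areg UMIs in the keratinocytes of P50_Depil5D, where 88 were counted, and 17 in P50, where 25 were counted. It would give 13.6 in P45, where 112 were counted, so P45 had the most beyond that amount. P63 over P45 was 0.237 (0.126 to 0.415) and P80 over P45 was 0.364 (0.188 to 0.648). In these comparisons 1.5% of 8516 genes and 1.63% of 8055 genes were past 2-fold downward. Suprabasal keratinocytes had 149 CPM of Areg and basal ones 35.7 CPM, a ratio of 4.16 (2.71 to 6.22). By library the ratio was 3.71 in P50_Depil5D (1.81 to 7.03) and 1.69 in P45 (0.590 to 3.96), and P63 had no suprabasal UMI. In P50_Depil5D 9 of the 12 suprabasal UMIs were in 1 cell. Without the top cell of each subset, the levels there were 134 CPM in suprabasal and 74.6 CPM in basal cells. In P50 all 6 suprabasal UMIs, and in P80 6 of 7, were in 1 cell.

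**Figure D3:**
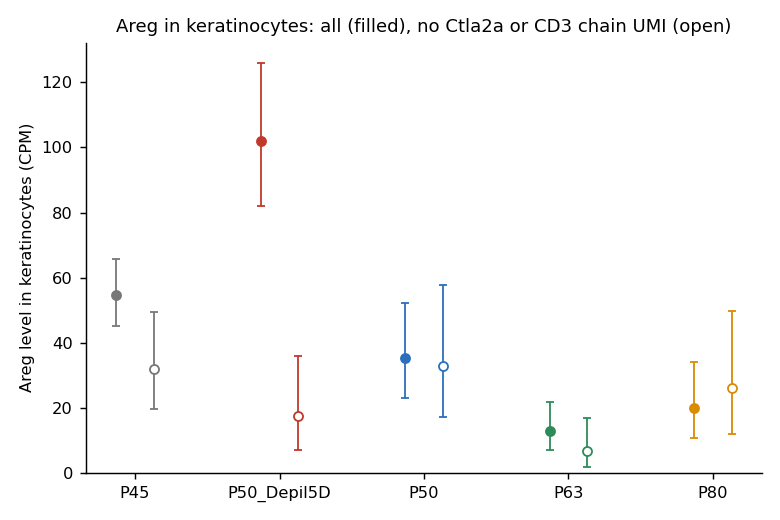
Areg level in keratinocytes in CPM for each library with exact 95% Poisson intervals, over all cells (filled) and over cells with no Ctla2a or CD3 chain UMI (open). The value of P50_Depil5D is 102 CPM over all cells and 17.4 CPM without such UMIs, while that of P50 is 35.4 CPM and 33 CPM.

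Ereg and Btc were at the edge of detection. Ereg, which encodes a ligand of EGFR and ERBB4, had 4 UMIs in 2 cells, 3 of them in 1 keratinocyte of P45. Btc, likewise a ligand of EGFR and ERBB4, had 7 UMIs in 7 cells, of which 3 were in dendritic cells, 2 in macrophages and 1 in a keratinocyte. Neither had a UMI in T cells. No order of classes or libraries can be read from these counts.

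Egfr, the receptor, had 92.5% of its 252 UMIs in keratinocytes, at 43.6 CPM and 47.1 times the level of the immune classes (24.4 to 104), or 72.6 times without P45. Across libraries it had 45.9 CPM in P45, 38.4 CPM in P50_Depil5D, 41.0 CPM in P50, 50.1 CPM in P63 and 35.2 CPM in P80, and all of these intervals overlapped. P50_Depil5D over P50 was 0.936 (0.551 to 1.60). T cells had 2 Egfr UMIs in 1642 cells, or 0.742 CPM, and macrophages 4.36 CPM from 6 UMIs. Fibroblasts, which are known to carry the receptor, had 30.2 CPM from 4 UMIs, and keratinocytes were 1.45 times as high (0.557 to 5.35). Basal, suprabasal and upper follicle keratinocytes had 42.6, 38.4 and 44.6 CPM over pooled libraries. In P63 upper follicle cells were higher, at 140 CPM from 11 UMIs in 13 cells, with basal over upper follicle at 0.289 (0.138 to 0.647), while in P45 (2.61) and P50 (3.06) that ratio was within counting error.

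**Figure D4:**
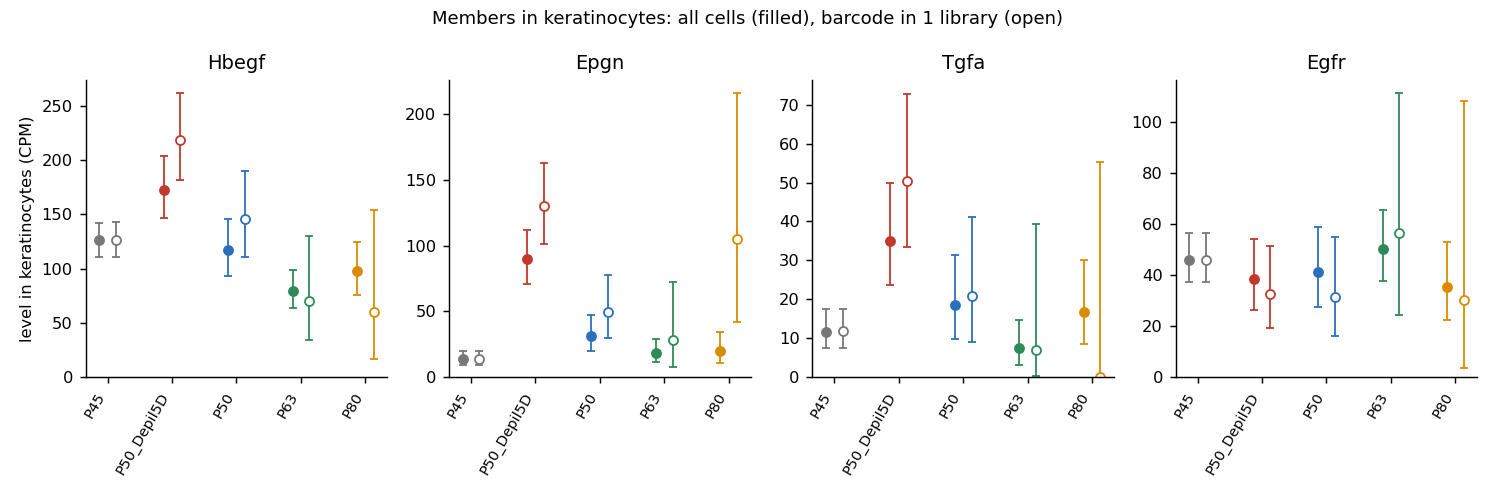
Levels of Hbegf, Epgn, Tgfa and Egfr in keratinocytes in CPM for each library, over all cells (filled) and over cells whose barcode occurred in 1 library (open), with exact 95% Poisson intervals. The 3 ligands are highest in P50_Depil5D over all cells, at 173, 89.6 and 34.9 CPM, while Egfr lies between 35.2 and 50.1 CPM in all libraries.

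Keratinocytes with Epgn held more of the ligands Tgfa and Hbegf per UMI and less of the receptor than those without. The 79 keratinocytes with an Epgn UMI had 42.7 CPM of Tgfa against 12.1 CPM in the 980 others (ratio 3.54, 2.19 to 5.61). They had 228 CPM of Hbegf against 103 CPM (2.20, 1.83 to 2.64). Their Egfr level was 27.1 CPM against 46.1 CPM (0.587, 0.347 to 0.939). The cells with Epgn were deeper, at a median of 6354 UMIs against 2580.5, and the part of depth, of mixed cells and of the libraries they came from was not tested.

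Other ERBB genes and the genes of ligand shedding were described by class. Erbb2, the co-receptor without a ligand of its own, and Erbb3, which lacks strong kinase activity, had 23.8 and 30.5 CPM in keratinocytes and 0 and 1 UMI in T cells. Erbb4 had no UMI in keratinocytes and 1 in T cells. Of the 5 other ERBB ligands, Nrg1, which encodes neuregulin 1, had 5.80 CPM in keratinocytes and up to 19.8 CPM in a library, Nrg3 had no UMI in keratinocytes or T cells, and Egf, Nrg2 and Nrg4 stayed at or under 1.31 CPM in both. The sheddases Adam10 and Adam17 were at 25.6 and 19.7 CPM in T cells and 27.3 and 18.7 CPM in keratinocytes. Rhbdf2, which guides ADAM17 to the cell surface, was at 14.1 CPM in T cells and 19.8 CPM in keratinocytes, whereas its relative Rhbdf1 was at 0.371 CPM in T cells and 21.7 CPM in keratinocytes. Timp3, an inhibitor of ADAM17, was at 1.11 CPM in T cells and 126 CPM in keratinocytes.

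Genes of EGFR signalling that also respond to other receptors were described as lists, with a 2-fold limit on log2(CPM + 10) and at least 20 UMIs in both sums together. In T cells of P50_Depil5D against P50, 0 of 11 measured adaptors and effectors, 0 of 10 negative regulators and 1 of 9 ERK immediate early targets were past the limit in either direction. That gene was Ier3, a survival-associated early gene, at 171 CPM in P50_Depil5D and 61.7 CPM in P50 (ratio 2.78, 2.02 to 3.88). The share of all genes past the limit was 0.454% upward and 0.375% downward. The median log2 ratio was 0.47 for the early targets, 0.17 for the negative regulators and -0.02 for all genes. Among early targets short of the limit, Atf3 was at 169 CPM in P50_Depil5D and 91.9 CPM in P50, and Egr1 at 80.9 CPM in P50_Depil5D and 49.6 CPM in P50.

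Among the comparisons of a later day with P45, T cell Areg differed most in P50 against P45. There, 2 of 10 measured negative regulators were higher in T cells and 1 lower. Of all genes, 5.37% were past the limit upward and 4.09% downward. Errfi1, an inhibitor of EGFR kinase, was at 179 CPM in P50 and 52.9 CPM in P45 (3.38, 2.33 to 5.04), and the phosphatase gene Ptpn1 at 229 CPM in P50 and 89.2 CPM in P45. The ubiquitin ligase gene Cblb was at 8.46 CPM in P50 and 34.8 CPM in P45. Il18r1, a subunit of the interleukin-18 receptor, was lower, at 121 CPM in P50 and 396 CPM in P45, the only 1 of 6 measured genes of its list past the limit. The early targets had a median of 0.05 against 0.02 for all genes, with 0 of 10 past the limit.

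The later days had few T cell UMIs. In P80 against P45, Spry2, an ERK pathway inhibitor, was higher at 448 CPM in P80 and 169 CPM in P45. The 4 genes Map2k1, Mapk3, Cblb and Socs4 were lower, with 0 to 2 UMIs in P80. Of all genes, 7.83% were past the limit upward and 13.1% downward. In P63 against P45 Spry2 was again higher, at 377 CPM in P63 and 169 CPM in P45, with 4.21% of 4582 genes past the limit upward. Shc1, Mapk3 and Cblb were lower there, with 1 or 2 UMIs in P63, and 3.82% of genes were past the limit downward. The same P45 library stood under each of these comparisons.

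In keratinocytes of P50_Depil5D against P50, 1 of 12 measured early targets was past the limit. This was Fosl1, which encodes the AP-1 subunit FRA1 known from wound keratinocytes, at 283 CPM in P50_Depil5D and 129 CPM in P50 (2.20, 1.72 to 2.83). Of all 6065 genes, 1.02% were past the limit upward and 0.462% downward. The list's median was -0.29 against -0.01 for all genes. In this comparison none of the 11 measured adaptors, 11 negative regulators, 5 shedding genes or 2 other receptors was past it. Along the day series Fosl1 was at 129 CPM in P50 (4.18 times P45, 3.0 to 5.86) and 73.5 CPM in P80 (2.39 times P45, 1.61 to 3.53), against 30.8 CPM in P45. Phlda1, an ERK-responsive gene, was at 195 CPM in P50 and 77.2 CPM in P45, a comparison with 0.672% of 8041 genes past the limit upward and 2.15% downward. In P80 against P45, 2.27% of genes were past the limit upward and 1.63% downward. The other gene past it there was Il2rg, lower at 4.59 CPM in P80 and 19.5 CPM in P45. In P63 against P45 Timp3 was higher at 197 CPM in P63 and 87.0 CPM in P45. Dusp6, an ERK phosphatase gene, was lower at 46.4 CPM in P63 and 138 CPM in P45, while 1.75% of genes were past the limit upward.

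The genes whose levels ran most like a member's were named from Pearson's r of log2(CPM + 10) over the 25 class-by-library sums of at least 20 cells, among 6666 genes with 200 or more UMIs. These sums share libraries and cell classes, so r mainly follows the class and carries no test. For Areg they included Rnf125 (0.88), 4930486L24Rik (0.88), Sytl3 (0.86) and Sit1 (0.86). For Hbegf they were Micall1 (0.92), P3h2 (0.85) and Dnph1 (0.85). For Egfr they were Gpha2 (0.98), Cd109 (0.98) and Tacc2 (0.97). Epgn, Tgfa, Ereg and Btc had fewer than 200 UMIs and were not used.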

How the data were processed

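Live CD45+ cells from the dermis of C57BL/6 mice had been profiled with 10x Genomics 3' chemistry in 5 libraries. The deposited matrices hold UMI counts, whole numbers per gene and barcode, with no normalization found in them. Per the submitters' processing notes the build was mm10 and Seurat is named with no version and no stated use. The aligner and the cell-calling rule were not given in the sources used here. A barcode was kept at 200 or more genes and up to 10% mitochondrial UMIs, and 61 of 6223 were removed. Cells were gated by fixed markers. The T cell gate also needed a CD3 chain UMI, and subsets needed 2 markers. No doublet caller was run, and mixed cells (2 or more markers of both immune cells and keratinocytes) were left out as an alternative. Such cells made up 139 of 1642 T cells and 798 of 1059 keratinocytes. UMIs were summed per class and library. Gene coordinates came from GENCODE vM21. Shares of cells were thinned to 1000 UMIs per cell, and 3 counts were taken as the floor where no UMI was found.

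The members, marker and pathway lists and comparisons were chosen with earlier results of these data known. All members were named, pathway genes when past 2-fold, and by likeness the 5 genes of highest r for Areg and 3 for each other member with 200 UMIs. Of the genes most like Areg, 1 is not reported here. Atf3, Egr1 and the class levels of other pathway genes were added after their values were seen. Alternatives changed filters, gates, scaling, shared barcodes and mixed cells. Tools were Python 3.11.15, scanpy 1.11.5, scipy 1.17.1, R 4.3.3, edgeR 4.0.16 for TMM factors and DESeq2 1.42.0 for size factors. The ratio and interval steps were tested on simulated counts.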

Additional observations from a re-analysis of the deposited data

Results flagged for a closer look

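Areg was also found in cells that the gates left out of every class. The ungated cells, which had no comparison of their own and entered only the sum of all cells other than T cells, had 88.2 CPM in P45, 640 CPM in P50_Depil5D, 170 CPM in P50, 45.9 CPM in P63 and 192 CPM in P80, from 66, 145, 58, 8 and 20 UMIs. In each library this was above the level of 3 counts, and P50_Depil5D was the highest, as in T cells.

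A second set of cells was gated by type 2 innate lymphoid cell markers. It was counted among the immune classes and among all cells other than T cells. Its 14 cells had 1258 CPM of Areg from 27 UMIs, above the 140.0 CPM that 3 counts would give. A single cell held 14 of these UMIs, and without it the level was 653 CPM. The level of this set over that of T cells was 1.02 pooled (0.674 to 1.49). It was 1.88 in P50 (1.11 to 2.98) and 0.386 in P50_Depil5D (0.166 to 0.762), from 18 and 8 UMIs. Of the 14 cells 12 were near the limit of their gate, so no cell type is given to them.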

How the results depend on the processing

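All ratios rest on 1 library per group, so group, mouse and preparation cannot be told apart. Of the alternatives to the main results, 134 values stayed the same, 22 moved and 2 reversed. Areg in T cells over all other cells (21.8) was 30.4 by Leiden clusters, 19.7 without shared barcodes, 24.5 without mixed cells, 18.9 with TMM factors, 19.3 with DESeq2 size factors and 18.2 to 22.8 with each library left out in turn. P50 over P45 in T cells (6.21) was 4.71 by clusters, and P80 over P45 (2.26) was 1.33 without mixed cells. No alternative moved P50_Depil5D over P50. Keratinocytes over immune classes were 8.17 by clusters, 18 without shared barcodes and 11.1 to 15.1 by library left out for Hbegf, 11.4 and 69.9 to 150 for Epgn (no value without P45, where its 2 immune UMIs were), 11.1 and 31.4 to 97.1 for Tgfa, and 37.4 to 72.6 for Egfr.

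Leaving out keratinocytes with a T cell gene UMI was an alternative chosen after seeing the data. Without Ctla2a or CD3 chain UMIs, keratinocyte Areg in P50_Depil5D over P50 (2.90) was 0.526, or 0.424 also without shared barcodes. It was 8.14 without shared barcodes alone and 1.33 as a mean per cell. The Epgn ratio (2.88) was 1.18 without mixed cells, 1.66 without those T cell UMIs and 1.54 with both. The cause was not tested. The share of Ctla2a-high cells with Areg fell to 37.3% in P50_Depil5D (49.6% at 1000 UMIs) and 32.2% in P50 (42.8%) at 500 UMIs. Pathway genes past 2-fold in T cells numbered 2 in place of 1 for P50_Depil5D over P50 with 1 CPM added, and 9 with 1 CPM added or 11 with no minimum in place of 5 for P80 over P45. No paired analysis was possible because each group has 1 library and the labels carry no replicate numbers.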
